A study of Mus musculus with 7 samples.

Results

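The transcriptome described here is that of control mouse embryonic stem cells, taken from the 3 arrays on which cells carried a hairpin against luciferase, out of 7 arrays in the series. J-1 is an established mouse embryonic stem cell line of male origin. All cells of the series were J-1 cells infected with lentiviruses and grown in full medium, so the controls had gone through the same infection as the others. The control virus carried a short hairpin RNA directed at luciferase, a firefly gene with no counterpart in the mouse. The other 4 arrays, 2 with each of 2 hairpins against Mettl3, the methyltransferase that places N6-methyladenosine on RNA, are used below only for the spread inside each hairpin group, and no knockdown was compared with control. The controls represent 1 cell line, the sources used here do not give the composition of the medium or the presence of feeder cells, and the labels number the replicates without saying whether they were separate cultures. The spread reported here therefore measures the difference between these 3 samples, which may be technical.

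Each sample was hybridised to 1 Affymetrix mouse exon array, which carries a small group of probes (a probe set) for single exons and predicted exons. The deposited values are log2 signals after RMA, a method that subtracts background, brings the arrays to 1 common distribution and summarises probes. Of 1201338 probe sets, 311384 carried exactly 1 gene symbol, and the level of a gene on an array was the median of all its probe sets of that kind. At least 3 probe sets were required, which gave levels for 19993 genes, each read by 12 probe sets at the median. A difference of 1 on this scale is a doubling of signal. Probe sets differ in how strongly they bind their target, so the order of genes by level is coarse and neighbouring genes in it are not ranked by RNA amount. The number of arrays limits the precision of every SD below.

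Embryonic stem cells are held in a self-renewing state by a small set of transcription factors that bind one another's genes. Oct4, the product of Pou5f1, and Sox2 bind side by side to a joint DNA element, and Nanog, Esrrb and the Kruppel-like factors reinforce them. In medium with the cytokine LIF the cells resemble the inner cell mass of the blastocyst, a state called naive pluripotency, while cells on the way to differentiation pass through formative and primed states marked by other genes. The cells divide fast, with a short first gap phase, and at the same time keep germ layer genes at low levels.

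The promoters of 3 of the 5 stem cell markers held letters of the Oct4 element within 250 bases upstream of the transcript start. They are printed to show where the element stands in genes with high levels. Capitals mark the match. Sequences and coordinates are from RefSeq, build GRCm38.p6, and are written 5′ to 3′ on the strand of the gene. The Nanog promoter lies at chr6:122707239-122707488 on the + strand, the Sox2 promoter at chr3:34649745-34649994 on the + strand and the Zfp42 promoter at chr8:43307010-43307259 on the - strand.
Nanog: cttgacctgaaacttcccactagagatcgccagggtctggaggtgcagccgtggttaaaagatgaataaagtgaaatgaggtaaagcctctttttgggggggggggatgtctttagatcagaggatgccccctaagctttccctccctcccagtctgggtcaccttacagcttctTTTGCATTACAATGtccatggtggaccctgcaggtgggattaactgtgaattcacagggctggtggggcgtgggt
Sox2: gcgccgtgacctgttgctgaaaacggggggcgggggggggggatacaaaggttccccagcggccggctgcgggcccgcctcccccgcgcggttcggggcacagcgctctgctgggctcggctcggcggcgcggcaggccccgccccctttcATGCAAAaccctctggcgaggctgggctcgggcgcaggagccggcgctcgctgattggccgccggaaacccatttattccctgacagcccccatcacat
Zfp42: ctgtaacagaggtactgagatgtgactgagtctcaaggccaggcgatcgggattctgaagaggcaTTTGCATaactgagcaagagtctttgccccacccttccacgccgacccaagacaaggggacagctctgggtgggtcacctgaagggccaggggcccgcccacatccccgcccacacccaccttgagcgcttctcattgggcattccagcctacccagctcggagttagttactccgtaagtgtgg
In Nanog the capitals cover the joint element of Oct4 and Sox2, 75 to 62 bases before the start. The table holds a second Nanog start, with its promoter at chr6:122707315-122707564, from which the same letters lie 151 to 138 bases away. In Sox2 they cover the Oct4 letters ATGCAAA, 99 to 93 bases before the start, and in Zfp42 the same letters read on the other strand, 185 to 179 bases before the start. The joint element was searched as TTNGCAT, 1 further base of any kind and ACAATG, on both strands, and its first letters contain the reverse of ATGCAAA, so the Nanog match counts under both searches. Of 15560 genes with a promoter in the table and a level on the arrays, the joint element was present in 1, Nanog itself. The letters ATGCAAA were present at any start in 661 of the 15560 genes (4.25%). In the core and naive pluripotency lists they were present in 3 of the 20 genes with a matched promoter and a level (15%). The 2 lists together name 34 genes, so this share does not cover them all. Pou5f1 and Esrrb had a promoter in the table without these letters in the window. A match of letters is a description of the sequence and not a measurement of binding.

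To separate genes with signal from genes without, the 568 genes for odorant, pheromone and taste receptors served as a background, since they are read out in sensory cells. Their median level on the 3 arrays was 4.0, 3.97 and 3.97, against 7.36, 7.36 and 7.34 for all genes. A gene was called above background when its level exceeded the 95th percentile of the receptor genes (6.33, 6.35 and 6.32) on each of the 3 arrays. By this rule 12946 of 19993 genes (64.8%) were above background, 1167 were above it on 1 or 2 arrays and 5880 on none. Of the receptor genes, 22 of 568 passed. The share of 64.8% is the background against which the counts of every gene list below are to be read, unless another threshold or setting is named. At the 99th percentile of the receptor genes the share was 47.5%. With only bright probe sets (mean level above 6.06, the median of all probe sets) it was 46.9% of 16367 genes. The histogram of mean levels shows the receptor genes at the low end and the 5 stem cell markers in the upper tail.

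**Figure D1:**
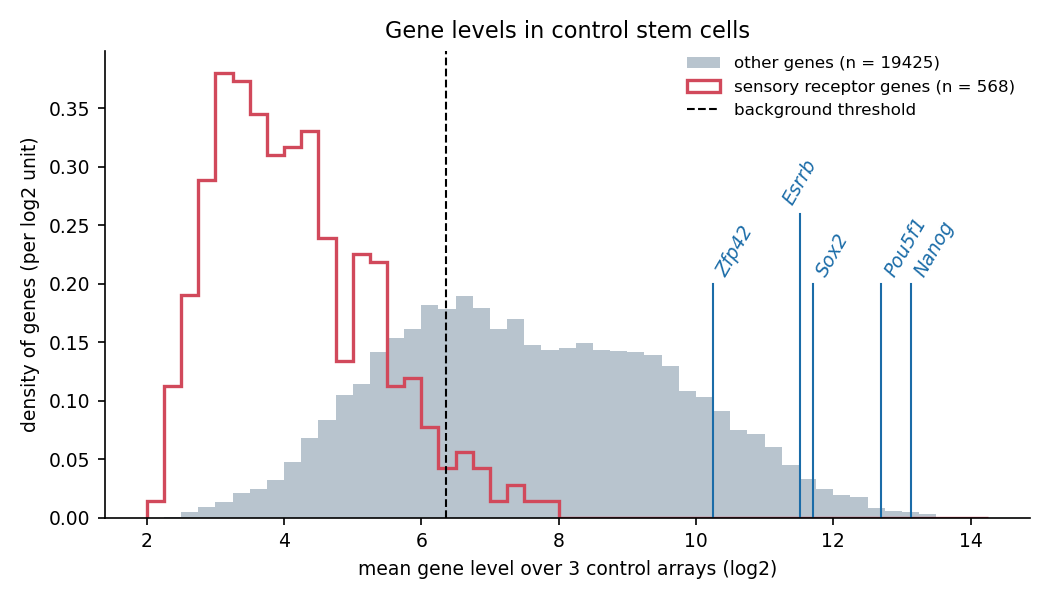
Distribution of mean gene levels over the 3 control arrays (log2, x axis) as a density of genes per log2 unit (y axis), for the 568 sensory receptor genes (outline) and the other genes (filled), with the 5 stem cell markers at their levels and the background threshold as a dashed line. The markers lie between 10.25 and 13.14, to the right of the threshold and of most genes.

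The 3 arrays were close to one another, with Pearson correlations across genes of 0.993 for replicates 1 and 2, 0.992 for replicates 1 and 3 and 0.991 for replicates 2 and 3. Genes share their probes and arrays, so these values describe the arrays and are no test. The median absolute difference of a gene above background was 0.108, 0.112 and 0.143 for the same pairs, and 4, 2 and 15 such genes differed by more than 1. Replicates 2 and 3 thus stood farthest apart. For the genes above background, each gene's mean over the 3 arrays was removed before principal components were taken. The first component held 66.5% of the remaining variance and weighted the replicates at -0.04, 0.72 and -0.69. Only 2 components exist for 3 arrays centred in this way, so the first holds the larger part by construction.

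The 5 markers of embryonic stem cells were above background on every array, and 4 of them stood in the top 5% of genes by level. Nanog, the homeobox factor whose loss lets cells drift from the pluripotent state, was at 13.14, 13.11 and 13.16 in replicates 1 to 3, a mean of 13.14 ± 0.026 (SD, n = 3) at percentile 99.9 of all genes. Pou5f1 was at 12.59, 12.87 and 12.62, a mean of 12.70 ± 0.154 (SD, n = 3) at percentile 99.6. Replicate 2 was the high array for Pou5f1, whereas the arrays were nearly level for Nanog. Sox2, the partner of Oct4, was at 11.72, 11.82 and 11.56 (mean 11.70 ± 0.128, SD, n = 3, percentile 97.7). Esrrb, an orphan nuclear receptor of the naive network, was at 11.59, 11.54 and 11.44 (mean 11.52 ± 0.077, SD, n = 3, percentile 97.2). Zfp42, the zinc finger gene also known as Rex1, was the lowest of the markers at 10.25, 10.35 and 10.15 (mean 10.25 ± 0.099, SD, n = 3, percentile 88.8). The label of embryonic stem cells is thus matched by its defining genes on each array.

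Within 1 gene the probe sets spread far more than the arrays did. The quartiles of the 8 Zfp42 probe sets were 9.46 and 11.20, those of the 16 Esrrb probe sets 10.85 and 12.41, and those of the 6 Pou5f1 probe sets 12.51 and 13.02. A gene's place among its neighbours therefore depends on which of its exons the array reads, while the comparison of one array with another uses the same probe sets throughout.

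Of the core pluripotency list, 12 of 12 measured genes were above background, with a median level of 11.87 against 7.35 for all genes. Its highest members were Tdgf1, a co-receptor of Nodal signalling, at 13.38, 13.38 and 13.35, and Trim28, a corepressor that silences retroelements, at 13.17, 13.19 and 13.07, followed by Nanog and Pou5f1. All 4 stood among the top 1% of genes. Sall4, a zinc finger partner of Oct4, was at 11.93, 12.02 and 11.90, and Lin28a, which blocks the processing of let-7 microRNAs, at 11.81, 11.93 and 11.66. The lowest members were Foxd3, a forkhead repressor, at 9.23, 9.32 and 9.43, and Tfap4 at 8.62, 8.45 and 8.57. Both lay above the threshold by more than 2 log2 units on each array. The list's SDs ran from 0.019 (Tdgf1) to 0.154 (Pou5f1), with a median of 0.080 against 0.128 for all genes and 0.103 for genes above background. Other lists with high levels had medians as low, such as translation factors (0.076) and DNA replication (0.074).

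All 20 measured genes of the naive pluripotency list were above background, with a median of 10.79. Nr0b1, which encodes the nuclear receptor Dax1, was highest at 13.19, 13.23 and 13.16, and Dppa5a, an RNA-binding protein of early embryos, was at 13.21, 13.27 and 13.05. Mybl2, a cell cycle transcription factor, was at 12.71, 12.66 and 12.68, and Dppa2, which primes chromatin of early embryonic genes, at 12.33, 12.42 and 12.25. The signal of these 4 genes thus lay among the highest on the arrays. The Kruppel-like factors Klf5 (mean 10.90 ± 0.111, SD, n = 3), Klf4 (10.68 ± 0.026) and Klf2 (9.96 ± 0.094) and the T-box factor Tbx3 (11.01 ± 0.135) were within 1 log2 unit of the list median. Prdm14, which restrains FGF signalling and DNA methylation, was at 9.47, 9.40 and 9.40. Dppa3, also known as Stella and active in germ cells and the early embryo, was the lowest member at 6.69, 7.55 and 6.42. Its lowest array was only 0.1 above the threshold of that array, and with a threshold at the 99th percentile of the receptor genes 19 of the 20 members passed.

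The genes of formative and primed pluripotency had lower levels than the naive list, with a median of 9.19 and 12 of 13 measured members above background. Dnmt3b, a de novo DNA methyltransferase, was highest at 11.08, 11.11 and 11.04, followed by the FGF-responsive factors Etv5 (10.65 ± 0.037, SD, n = 3) and Etv4 (10.01 ± 0.040) and the tight junction gene Cldn6 (9.78 ± 0.076). Otx2, the factor that redirects Oct4 as cells leave the naive state, was at 9.33, 9.09 and 9.15. Nearest to the threshold stood Sall2 at 6.64, 6.49 and 6.84, above it on each array, and Fgf5, the growth factor gene that marks the primed epiblast, at 6.44, 6.30 and 6.29, above it on 1 array. The next members above them were Sox3 at 8.31, 8.40 and 8.36 and Pou3f1 at 8.43, 8.42 and 8.47. Between Sall2 and Sox3 lay a gap of more than 1 log2 unit. The plot of the 3 lists by array shows Dppa3 as the gene with the widest separation of its 3 points.

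**Figure D2:**
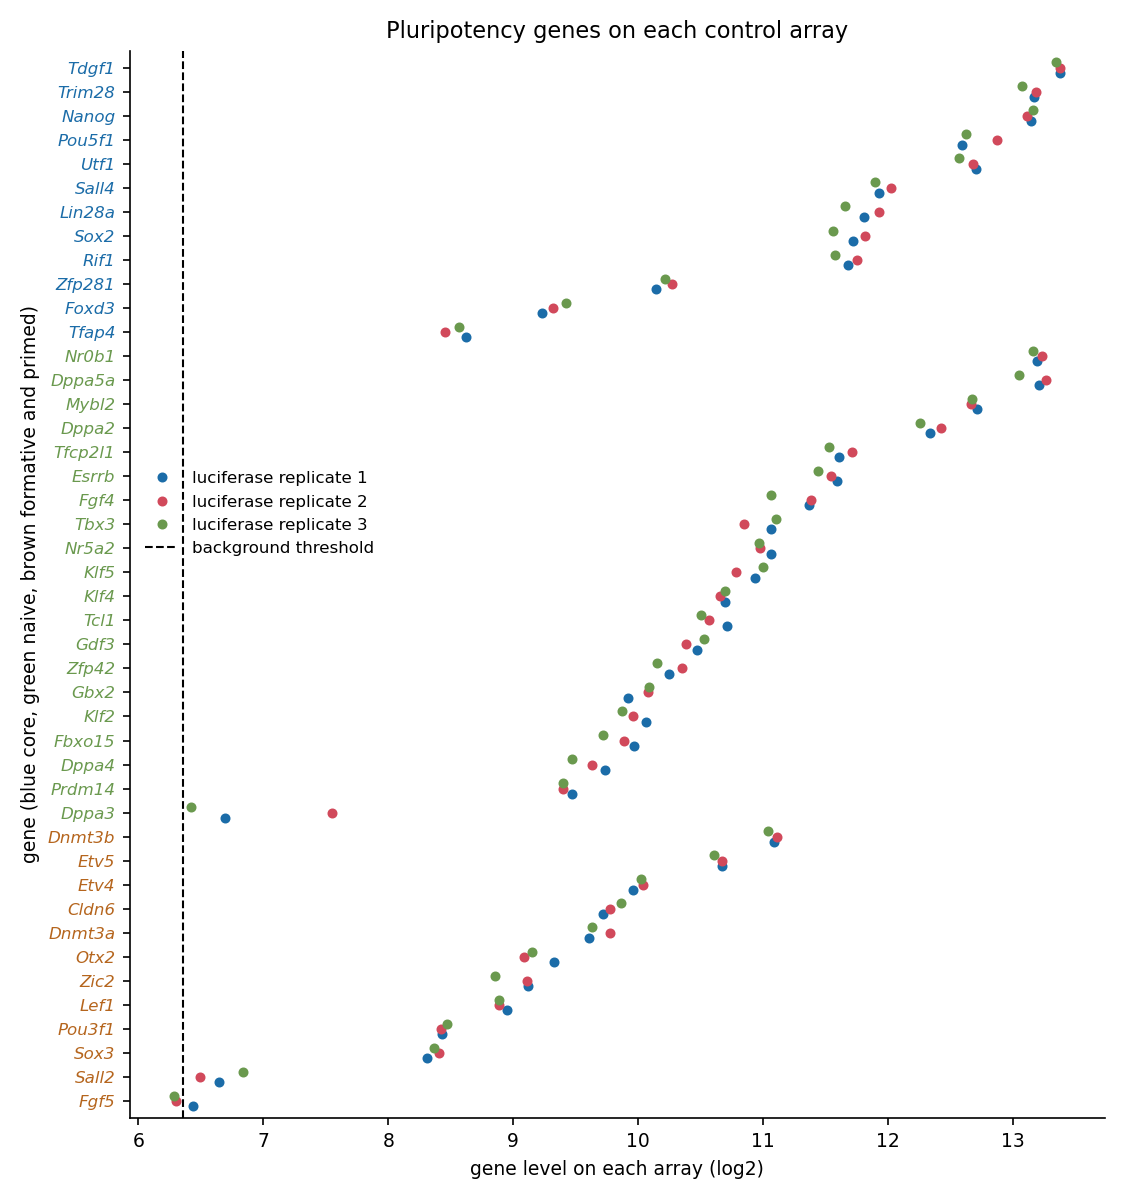
Level on each control array (log2, x axis) of the genes of the core, naive, and formative and primed pluripotency lists (y axis, 1 line per gene, coloured points for replicates 1 to 3), with the background threshold dashed. Points of 1 gene lie close together except for Dppa3 (6.42 to 7.55), and Fgf5 lies at the threshold.

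The two-cell-like state, a rare and transient condition of stem cells in which genes of the 2-cell embryo are active, was covered poorly, since 5 of its 12 listed genes had a level. Of these, Zfp352 (7.53, 6.86 and 7.32) and Sp110 (6.56, 6.88 and 6.81) were above background and Tmem92, Tdpoz4 and Usp17la were not. At the 99th percentile of the receptor genes 0 of the 5 passed, against 47.5% of all genes. Of 17 germ line genes, 11 were above background (64.7%), a share next to that of all genes. Mael, a factor of the piRNA pathway, was highest at 9.63, 9.88 and 9.67, followed by the RNA helicase Ddx4 (9.59 ± 0.217, SD, n = 3), the Argonaute protein Piwil2 (9.56 ± 0.093) and the RNA-binding protein Dazl (9.29 ± 0.091). Those 4 genes stood about 3 log2 units over the threshold, whereas Asz1 (3.58, 3.57 and 3.77) and Stra8, the gate to meiosis, (5.40, 5.43 and 5.39) were below it on every array.

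Of the 20 genes with the highest mean levels, the mitochondrial gene ND1, a subunit of respiratory complex I, led with 13.89, 13.93 and 13.80, followed by COX1, the mitochondrial core of cytochrome oxidase, at 13.64, 13.74 and 13.54. Cytoplasmic actin (Actb, 13.60 ± 0.095, SD, n = 3), the chaperones Hspa8 (13.55 ± 0.067) and Hsp90ab1 (13.39 ± 0.052), the proteasome subunit Psmb3 (13.46 ± 0.065) and the beta tubulin Tubb5 (13.32 ± 0.108) were among them. The ribosomal protein genes Rpl3, Rpl12, Rpl39, Rplp0, Rps20 and Rpl29 lay between 13.32 and 13.48, and the elongation factor Eef1a1 at 13.21 ± 0.153 (SD, n = 3). The others were the ATP synthase subunit Atp5b, the mitochondrial gene ND5, lactate dehydrogenase Ldha, superoxide dismutase Sod1, the G1 kinase Cdk4 at 13.33, 13.32 and 13.25, and Tdgf1. Tdgf1 was thus the 1 member of the pluripotency lists in the top 20, and Nr0b1, Dppa5a, Trim28 and Nanog followed within the first 30 genes. In all, 289 genes (1.45%) had a mean above 12. With the mean or the 75th percentile of the probe sets in place of their median, 13 of the 20 genes were again among the 20 highest.

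Chaperone and proteasome genes and translation factors had the highest medians of the 35 lists when probe sets were combined by their median. With the mean of the probe sets core pluripotency came first (11.86, against 11.56 for chaperones and proteasome and 11.49 for translation factors), and with the 75th percentile ribosomal proteins (12.74) and core pluripotency (12.73) stood above both (12.68 and 12.59). Of chaperone and proteasome genes 31 of 31 were above background with a median of 12.19, and of translation factors 33 of 33 with a median of 12.08. Beside Eef1a1, the initiation helicase Eif4a1 (13.17 ± 0.061, SD, n = 3), the elongation factor Eef2 (13.08 ± 0.127) and Eef1b2 (13.08 ± 0.015) led the translation list, and the cap-binding protein Eif4e was lowest at 9.19, 9.42 and 9.11. Of 49 measured ribosomal protein genes of 79 listed, 48 were above background, with levels from 6.15 to 13.48 and a median of 11.43. The exception was Rpl35a at 6.11, 6.56 and 5.79, above the threshold on 1 array, and the next lowest was Rps27 at 7.48, 7.64 and 7.11. Subunits of 1 particle thus covered more than 7 log2 units on these arrays.

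Energy genes were high for both routes of sugar use. All 20 measured glycolysis genes were above background with a median of 10.88. Ldha, which turns pyruvate into lactate, was at 13.33, 13.26 and 13.23, the glucose transporter Slc2a3 at 13.05, 13.01 and 12.93, the pyruvate kinase gene Pkm at 12.99, 12.91 and 13.04 and the transporter Slc2a1 at 12.94, 12.85 and 12.98. The lowest were the enolase gene Eno1 (9.0 ± 0.121, SD, n = 3) and hexokinase Hk1 (8.29 ± 0.109). Of oxidative phosphorylation genes 27 of 28 were above background with a median of 10.50. Atp5b was at 13.35, 13.35 and 13.36, Uqcrc2 of complex III at 12.33, 12.40 and 12.33, and Cycs, the gene of cytochrome c, at 6.81, 7.14 and 6.12, below the threshold in replicate 3.

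Cell division genes were above background almost without exception. In the DNA replication list 29 of 29 genes passed, with a median of 10.55, led by the sliding clamp Pcna (12.41, 12.53 and 12.21) and the helicase subunits Mcm7 (12.38, 12.37 and 12.37) and Mcm2 (12.29, 12.32 and 12.30). In the mitosis list 22 of 22 passed, with a median of 11.34, led by the cyclins Ccnb2 (12.55 ± 0.056, SD, n = 3) and Ccna2 (12.29 ± 0.102) and the kinases Aurka (12.16 ± 0.029) and Plk1 (11.96 ± 0.029). The list of G1 cyclins, kinases and inhibitors had 21 of 22 above background but a lower median of 9.05. Behind Cdk4 followed cyclin D1 (Ccnd1, 11.70, 11.55 and 11.50), cyclin E1 (Ccne1, 11.54, 11.32 and 11.31) and E2f4 (10.92, 11.09 and 10.98). Of the inhibitors of Cdk4, Cdkn2c was at 5.89, 5.82 and 6.02, below the threshold on each array, and Cdkn2b at 7.38, 7.26 and 7.42.

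Among enzymes that write and erase DNA methylation, 10 of 10 were above background with a median of 11.16. Dnmt3l, the catalytically inactive partner of the de novo enzymes, was at 12.44, 12.49 and 12.45, the dioxygenase Tet1 at 12.20, 12.29 and 12.22 and Tet2 at 12.02, 12.07 and 11.87. Tet3, best known from the oocyte and zygote, was the lowest at 7.39, 7.32 and 7.44. Of Polycomb subunits 19 of 21 passed. Jarid2, which helps to recruit the H3K27 methyltransferase complex, was at 12.39, 12.44 and 12.39, with the histone-binding subunits Rbbp4 (12.35 ± 0.061, SD, n = 3) and Rbbp7 (12.31 ± 0.070) beside it. The lowest members were Bmi1 at 6.13, 6.99 and 6.73 and Cbx8 at 6.20, 6.06 and 6.14. Bmi1 was below the threshold in replicate 1 only and Cbx8 on each array.

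Of the BAF chromatin remodeller, 17 of 19 subunit genes were above background, with Actl6a at 12.65, 12.77 and 12.57 and Dpf2 at 11.68, 11.64 and 11.80 at the top. The 2 that did not pass were Dpf3 (6.57, 6.16 and 6.17) and Actl6b (6.25, 6.33 and 6.09), which are known from muscle and nerve cells. Both ATPase genes passed, Smarca4 at 10.95, 10.95 and 10.96 and Smarca2 at 6.81, 6.66 and 6.74. All 17 silencers of retroelements passed, with Trim28 first and the H3K9 methyltransferase genes Setdb1 (11.24 ± 0.152, SD, n = 3) second and Suv39h1 (7.28 ± 0.041) last. All 14 measured genes of the m6A machinery passed, with a median of 9.73. Mettl3, the gene that the other hairpins of the series target, was at 10.37, 10.41 and 10.14 in these control cells. The reader Ythdf1 (10.65, 11.22 and 10.76) led the m6A list, and the demethylase Fto (8.48 ± 0.055, SD, n = 3) and the reader Ythdc2 (8.24 ± 0.238) closed it.

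Genes of LIF, FGF, BMP and Wnt signalling ranged widely, with list medians below those of the core and naive pluripotency lists and above that of all genes. Of LIF and STAT genes 14 of 15 were above background with a median of 8.98. The LIF receptor Lifr was at 10.07, 10.39 and 10.10, its transducer Stat3 at 10.10, 10.22 and 9.91 and the shared subunit Il6st at 9.96, 10.04 and 9.84. Lif itself, the ligand, was at 5.88, 6.31 and 6.30, below the threshold on each array. In the FGF list 18 of 19 passed with a median of 9.61. The ligand Fgf4 (11.36, 11.38 and 11.06), the feedback antagonist Spry4 (11.45, 11.52 and 11.55) and the ERK phosphatase Dusp6 (10.89, 10.84 and 11.03) led it, and Fgfr2 (6.60, 6.75 and 6.63) stood just over the threshold.

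All 22 measured genes of BMP and Nodal signalling passed with a median of 8.99. Below the co-receptor Tdgf1 stood the inhibitory Smad7 (10.98 ± 0.072, SD, n = 3), the mediator Smad4 (10.68 ± 0.036) and Id2 (10.65 ± 0.052), a helix-loop-helix inhibitor of differentiation. The antagonist Lefty2 (7.44 ± 0.025) and Bmp7 (6.61 ± 0.015) were the lowest. In the Wnt list 22 of 25 passed with a median of 8.94, led by beta-catenin (Ctnnb1, 12.53, 12.50 and 12.41), while the ligand Wnt3 (6.25, 6.31 and 5.91) and the receptor Lgr5 (6.18, 6.22 and 6.20) were below the threshold. In the interferon list 10 of 19 were above background (52.6%), against 64.8% of all genes, a gap of few genes in a list of this size. Its highest members were Ifitm3, a membrane protein that restricts virus entry, at 11.48, 11.57 and 11.55 and the RNA sensor Ddx58 at 10.27, 10.41 and 10.24. The induced effectors Mx1 (4.99, 5.20 and 5.07) and Mx2 (5.09, 4.68 and 5.18) and the sensor Ifih1 (4.91, 4.67 and 4.69) were below the threshold on each array of these virus-infected cells.

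Of immediate early genes 19 of 22 were above background with a median of 7.97. Myc was at 11.05, 10.95 and 10.97 and the phosphatase Dusp1 at 10.92, 10.82 and 10.87, whereas Egr3 (6.45, 5.87 and 6.45) missed the threshold in replicate 2. At the 99th percentile of the receptor genes 11 of the 22 passed, against 47.5% of all genes. In the stress list 20 of 21 passed with a median of 9.96. Asparagine synthetase, Asns, was at 13.12, 13.06 and 12.95, the chaperone Hspa5 at 12.67, 12.56 and 12.61 and the serine pathway enzyme Psat1 at 12.30, 12.17 and 12.24. The cystine transporter Slc7a11 was the exception at 5.73, 5.59 and 4.98. Of p53 pathway genes 18 of 19 passed with a median of 9.22, led by Ccng1 (12.39 ± 0.085, SD, n = 3) and Ei24 (11.36 ± 0.088), and the death receptor Fas did not (4.87, 4.45 and 5.11). Of 25 imprinted genes 23 passed. Peg10, a gene derived from a retrotransposon, was highest at 12.38, 12.33 and 12.50, and Xist, the RNA that silences an X chromosome in female cells, was below the threshold at 5.98, 5.92 and 6.17.

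Actin and adhesion genes were all above background, 27 of 27, with a median of 10.09. E-cadherin (Cdh1), which holds stem cells together in colonies, was at 11.80, 11.88 and 11.84, and N-cadherin (Cdh2), typical of mesenchymal and neural cells, was the lowest of the list at 6.87, 7.0 and 6.70. Of the Y-linked genes 5 of 10 had a level and 3 passed. Eif2s3y, a translation initiation subunit, was at 10.30, 10.23 and 10.11, Uba1y at 7.91, 8.23 and 8.08 and Uty at 7.12, 7.29 and 7.37, while Kdm5d (4.88, 5.02 and 5.49) and Usp9y (4.24, 4.48 and 4.46) did not pass. The share of 3 of 5 genes (60%) was near the 64.8% of all genes. At the 99th percentile of the receptor genes 2 of the Y-linked genes passed, and with bright probe sets alone 1 passed. The male origin of the line was not tested by these counts.

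**Figure D3:**
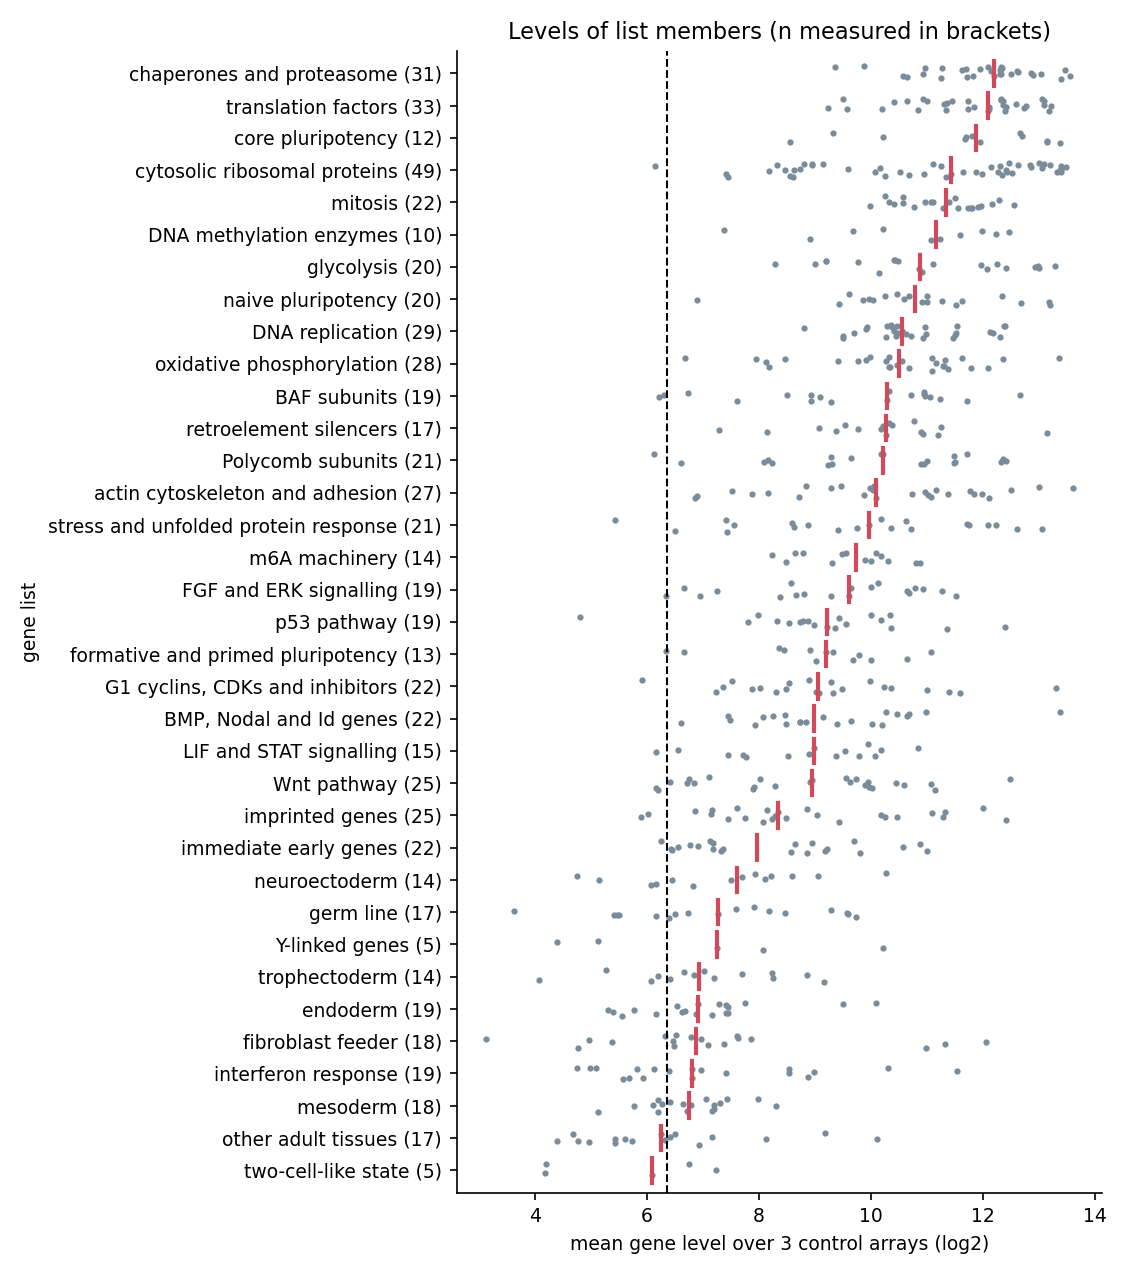
Mean levels over the 3 control arrays (log2, x axis) of the measured members of each gene list (y axis, number measured in brackets), 1 point per gene with the list median marked and the background threshold dashed. Chaperone, translation, core pluripotency and ribosomal lists have medians of 11.43 to 12.19, and the lineage and adult tissue lists lie near the threshold.

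Lists for other cell types were read against 2 values, the share of 64.8% over all genes and the list of genes of other adult tissues, of which 6 of 17 (35.3%) passed. The mesoderm list had 11 of 18 (61.1%) above background with a median of 6.75, the endoderm list 13 of 19 (68.4%) with 6.91, the neuroectoderm list 10 of 14 (71.4%) with 7.60 and the trophectoderm list 9 of 14 (64.3%) with 6.94. These shares were near that of all genes. With the threshold at the 99th percentile they came to 2 of 18, 4 of 19, 8 of 14 and 5 of 14 genes, where 47.5% of all genes passed. In RNA from a whole culture, a few cells with much of a transcript and many cells with little of it cannot be told apart.

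Among mesoderm genes the highest were Nkx2-5, a homeobox factor of the heart, at 8.28, 8.16 and 8.49 and Eomes, a T-box factor of the primitive streak, at 8.04, 8.04 and 7.87. The primitive streak gene T was at 6.85, 6.62 and 6.66, next to the threshold, and Mesp1 at 6.22, 6.10 and 6.27, below it. The lowest were the receptor gene Pdgfra (5.98, 5.58 and 5.74) and Tbx5 (5.27, 5.08 and 5.07). Among endoderm genes the laminin chains Lama1 (10.08, 10.09 and 10.09) and Lamb1 (9.51, 9.51 and 9.50) were high. They encode parts of the basement membrane, which other early cell types make as well. Gata6 (7.45, 7.35 and 7.42) and Foxa2 (7.49, 7.44 and 7.41) passed, whereas Sox17 (5.35, 5.75 and 5.58), Ttr (5.41, 5.33 and 5.46) and Afp (5.22, 5.45 and 5.25) were below the threshold on each array.

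Of the neuroectoderm list 3 members passed with bright probe sets alone, as in the endoderm and trophectoderm lists, against 46.9% of all genes in that setting. In the neuroectoderm list the neurofilament gene Nefl was at 10.30, 10.08 and 10.41, the neuronal tubulin Tubb3 at 9.14, 9.03 and 9.0 and Sox1 at 8.56, 8.71 and 8.52. The neural factor Pax6 (6.05, 6.02 and 6.42) passed on 1 array, and Pax3 (5.14, 5.0 and 5.28) and doublecortin, Dcx (4.87, 4.66 and 4.72), on none. In the trophectoderm list the keratin Krt8 (9.26, 9.18 and 9.02) and Tead4 (9.08, 8.81 and 8.69) led. Of its defining genes Cdx2 (7.19, 7.08 and 7.33) passed, Gata3 (6.14, 6.11 and 6.37) passed on 1 array, and Elf5 (6.13, 6.05 and 6.03) and the placental gene Tpbpa (3.90, 4.05 and 4.30) on none.

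Stem cells are often grown on fibroblasts, so fibroblast genes were read as a sign of other cells in the cultures. Of 18 fibroblast genes 12 passed (66.7%), with list medians of 6.91, 6.75 and 6.96 in replicates 1 to 3. At the 99th percentile of the receptor genes 6 of the 18 passed, against 47.5% of all genes. With bright probe sets alone 3 passed, against 46.9% of all genes in that setting. Fibronectin (Fn1, 12.05, 12.08 and 12.01), Sparc (11.45, 11.37 and 11.15) and vimentin (Vim, 11.03, 11.01 and 10.89) were high. Of 7 genes taken as defining for fibroblasts, Thy1 (7.90, 7.92 and 7.73), Col1a1 (7.40, 7.30 and 7.45), Col1a2 (6.98, 6.83 and 7.08) and Col3a1 (6.85, 6.67 and 6.84) passed, at levels between 6.67 and 7.92. Decorin (Dcn, 5.29, 4.76 and 4.86), periostin (Postn, 4.76, 4.73 and 4.81) and lumican (Lum, 3.46, 2.52 and 3.41) were below the threshold on each array. Fibronectin, Sparc and vimentin thus had levels that the collagens and the small proteoglycans did not share. Of the adult tissue genes Cd68 (10.07, 10.17 and 10.06), Pecam1 (9.22, 9.20 and 9.11) and Cd3e (8.10, 8.21 and 8.09) were the highest. The blood cell gene Ptprc (4.47, 4.29 and 4.45) and the glucagon gene Gcg (4.90, 4.65 and 4.52) were the lowest.

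The spread between replicates depended on the level. The median SD over 3 arrays was 0.103 for genes above background and 0.200 for the other genes, with 0.128 over all. An SD over 0.5 was reached by 341 genes, of which 0 had a mean level above 12. The range over the 3 arrays exceeded 1 in 272 genes, 19 of them above background. To ask whether single genes varied more than genes of their level do, each gene's variance was set against a trend of the variance over the level fitted with limma, by an F test with Benjamini-Hochberg adjustment over all 19993 genes. It called 0 genes (0%), with 0.988 as the lowest adjusted p. At an unadjusted p below 0.05 there were 942 genes (4.71%). The trend and the scatter around it were fitted to these same variances, so a share near the nominal level follows largely from the fit. With 3 arrays, no gene was shown to vary beyond the trend, and the widest genes are given as a description.

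**Figure D4:**
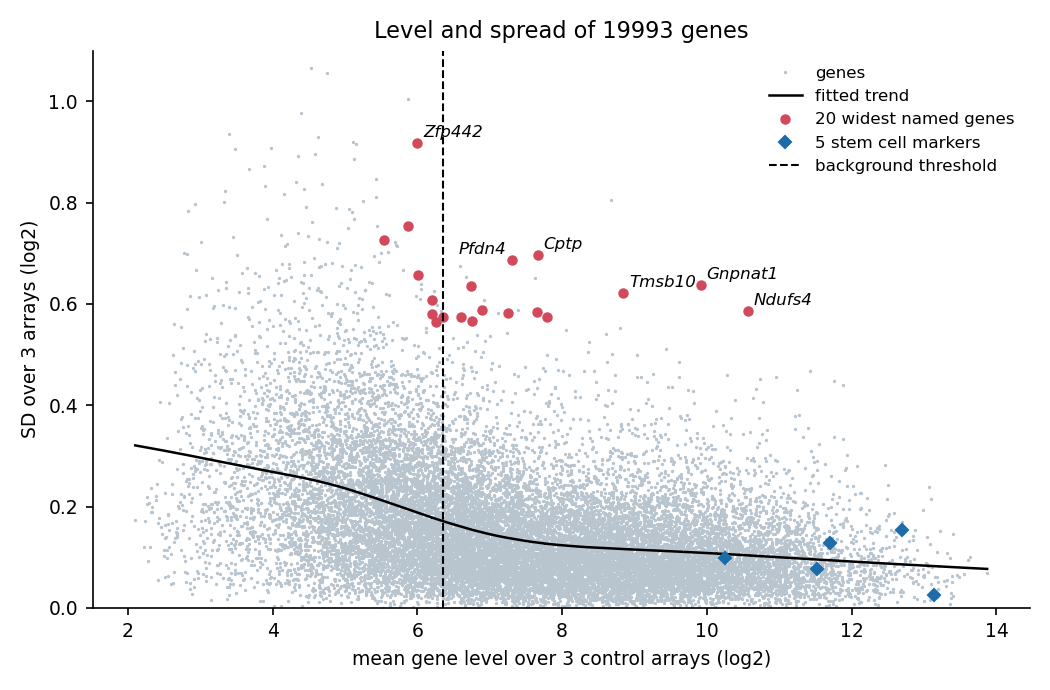
SD over the 3 control arrays (log2, y axis) against mean level (log2, x axis) for 19993 genes, with the fitted trend, the 20 widest named genes, the 5 stem cell markers and the background threshold. The trend declines with level, and Gnpnat1 and Ndufs4 are the named genes with a wide spread at levels near 10. Predicted genes, receptor genes and genes above background on no array were left unnamed.

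The widest named gene was Zfp442, a zinc finger gene, at 6.28, 6.75 and 4.98 (SD 0.917), above background on 1 array. Of the 20 widest named genes, with SDs from 0.565 to 0.917, 10 were above background on all arrays. In 11 of the 20 the highest array was replicate 2 and in 13 the lowest was replicate 3. Both were also frequent over all genes above background. There replicate 2 was highest with replicate 3 lowest in 31.2%, and highest with replicate 1 lowest in 11.8%. In a further 19.7% replicate 3 was lowest with replicate 1 highest. Gnpnat1, an enzyme of hexosamine synthesis, was at 9.72, 10.63 and 9.40, and 11 of its 15 probe sets were higher in replicate 2 than in replicate 3. Ndufs4, a subunit of respiratory complex I, was at 10.26, 11.24 and 10.19, and here 13 of 13 probe sets were higher in replicate 2 than in replicate 3. Between the highest and the lowest array of the gene, 5 of 9 probe sets of Pfdn4 and 1 of 3 of Calml3 went the same way. The genes were picked for a wide spread of the probe set median, so a majority of agreeing probe sets follows largely from that choice. Cptp, a lipid transfer protein, was low in replicate 3 alone (8.12, 8.01 and 6.86). Tmsb10, which sequesters actin monomers, was at 8.70, 9.52 and 8.31 from 3 probe sets.

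Dppa3 was the 1 pluripotency gene among them. Its SD of 0.588 stood at percentile 99.2 of all genes, with replicate 2 at 7.55 and the others at 6.69 and 6.42. Of its 13 probe sets 10 were higher in replicate 2 than in replicate 3, a count tied to the same choice of wide genes. Inside the Mettl3 hairpin groups the SD of Dppa3 was 0.039, at the 8th percentile. With the mean of the probe sets its SD in control cells was 0.297 and with their 75th percentile 0.181. The other naive genes had SDs from 0.023 (Mybl2) to 0.181 (Fgf4).

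The 20 genes were chosen by the median of their probe sets, so smaller SDs under another summary follow in part from that choice and are given only as values. With the mean of the probe sets the SDs ranged from 0.031 to 0.613. Pfdn4, a prefoldin subunit, had an SD of 0.687 by the median (6.59, 7.38 and 7.96) and 0.048 by the mean of its 9 probe sets, whose quartiles were 5.59 and 10.75. Hnrnpa1l2-ps, a pseudogene, had an SD of 0.613 by the mean and Ndufs4 one of 0.324. Hnrnpa1l2-ps and Zfp353-ps are near copies of other genes, and Zfp442 and Zfp595 belong to a large family of similar genes, so their probes may share targets. The 5% of genes with the widest spread for their level had a median of 8 probe sets against 12 for all genes. Without replicate 2, 7 of the 20 were again among the 20 widest, without replicate 3, 8, and without replicate 1, 13.

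**Figure D5:**
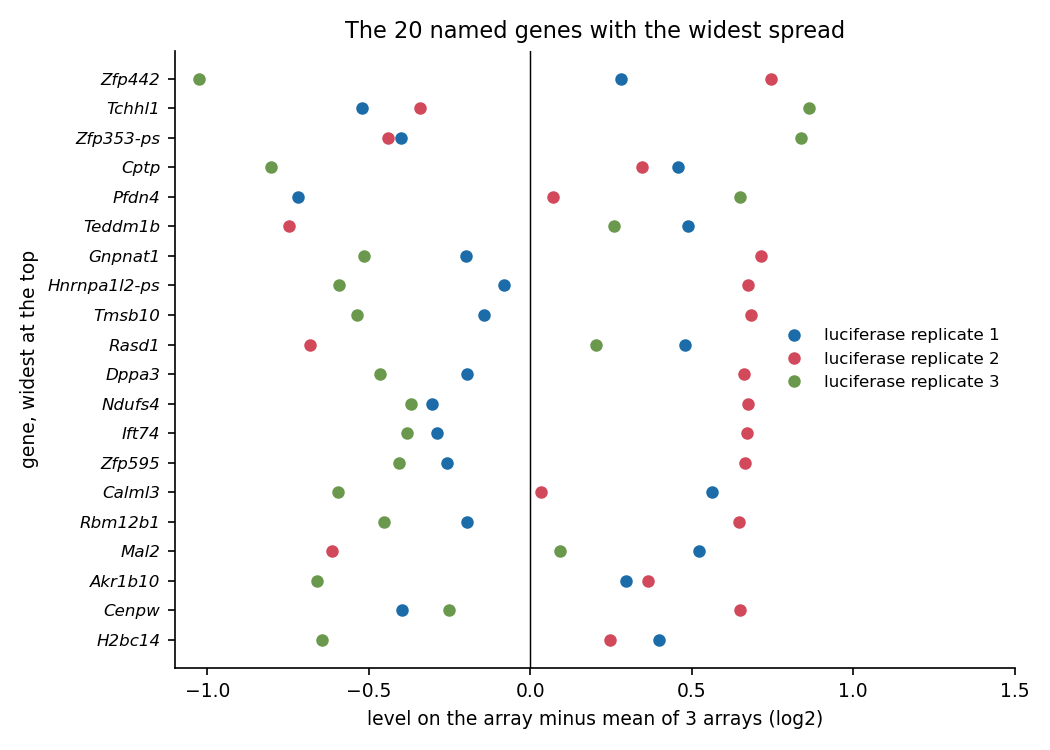
Deviation of each control array from the mean of the 3 (log2, x axis) for the 20 named genes with the widest spread (y axis, widest at the top), with coloured points for replicates 1 to 3. Replicate 2 is the highest array in 11 genes and replicate 3 the lowest in 13. Replicate 2 highest with replicate 3 lowest is also the most frequent order over all genes above background (31.2%).

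The order of the arrays was shared by many genes. Replicate 2 was highest and replicate 3 lowest in 4043 of the 12946 genes above background (31.2%), the most frequent of 6 orders, and in 505 of the 1000 genes (50.5%) with the widest spread for their level. These orders were counted without centring the arrays. The median deviation of the genes above background from the mean of the 3 arrays was 0.015, 0.023 and -0.041 in replicates 1 to 3, beside a median SD of 0.103. Orders with these offsets removed were not counted. Among the markers Pou5f1, Sox2 and Zfp42 had replicate 2 highest, with Sox2 and Zfp42 also lowest in replicate 3, whereas Nanog was lowest in replicate 2. The cause of the difference between replicates 2 and 3 was not tested, and scan dates and RNA quality values were not used here.

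The same measure was then read in the 4 arrays of the Mettl3 hairpins, each centred on its own group, which played no part in choosing the wide genes. Of the 1000 genes, 160 (16%) were also among the widest 5% inside the hairpin groups, against 5% of all genes by construction. Their median SD there was 0.165 against 0.127 for all genes. Over all genes Spearman's correlation of the SD in control and hairpin arrays was 0.346, and 0.164 once the SD was set against the trend. The 2 sets of arrays share probe sets, and genes are not independent. Of the 20 named genes, 15 had a hairpin SD above the median of all genes and 4 above the 90th percentile, among them Ndufs4 (0.410) and Zfp353-ps (0.828).

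Deviations were also read by chromosome. On each chromosome with at least 50 genes above background, the median deviation of an array from the mean of the 3, after removing the array's own median, lay between -0.029 and 0.034. The largest was that of chromosome 13 in replicate 2, and the same chromosome gave the lowest value in replicate 3. A difference shared by the 3 samples would not appear in these values.

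Promoters of the highest genes were rich in CpG, a known feature of housekeeping genes. For a gene with several starts the largest CpG count was taken, and letters present at any start were counted. The number of starts per gene was not matched between the groups. The median number of CpG pairs in the 250 bases upstream of the start was 19 in the 805 genes of the top 5% by level that matched, 16.5 in the 9420 other genes above background, 4 in the 5335 genes not above background and 1 in the 491 receptor genes with a promoter, most of which are also among the genes not above background. The TATA letters TATAAA on the gene's strand, starting 45 to 15 bases before the start, were present in 2.24%, 1.61%, 5.14% and 1.22% of these groups in that order. The letters ATGCAAA on either strand were present in 2.61%, 3.76%, 5.36% and 7.33%. The octamer letters were thus more frequent as the level declined, in the order opposite to CpG content, while Nanog, Sox2 and Zfp42 hold them at high levels. In the core and naive pluripotency lists Nr0b1 and Tfcp2l1, a grainyhead-like factor of the naive network, held the TATA letters. The median number of CpG pairs over the 20 genes of these lists with a matched promoter was 15.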

How the data were processed

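The deposited values are log2 signals of exon-level probe sets after RMA; RMA and R 2.11.1 are named per the submitters' processing notes. Which RMA package, probe set definition and annotation build were used is not given in the sources used here. Because RMA makes array distributions alike, a shift of most transcripts could not be seen. The 3 luciferase arrays ranged from 1.44 to 14.88, with medians of 6.05 to 6.07.

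Symbols came from the platform's annotation and were updated for 45560 probe sets through RefSeq GRCm38.p6 synonyms; 834 kept a symbol outside that table, 6385 probe sets with several symbols and 883569 with none were left out. No dim probe set was removed. Promoters matched by symbol for 15560 genes.

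The control arrays and the 35 lists (750 genes, 680 with a level) were chosen with earlier results of these data known. Named genes are the markers, the 20 highest genes, the 20 widest, up to 4 highest and 2 lowest members of each list, and list members nearest the threshold. The widest were named although none was called. Predicted, receptor, Mir and Snor genes went unnamed. Genes outside this rule (among them Cdh1, Smarca4, Otx2, Stat3, Klf4, Fas and Xist) were named after their values were seen.

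Spread was tested with limma 3.58.1 in R 4.3.3 (robust variance trend over mean level, adjusted p below 0.05). The procedure was also run on values simulated from this fitted trend with independent genes. Such a run cannot show how the test behaves on these arrays. Tables and figures were made in Python 3.11.15 with pandas 2.3.3 and matplotlib 3.10.9. Alternatives changed the combination of probe sets, the threshold, the scaling, the trend and the arrays.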

Additional observations from a re-analysis of the deposited data

How the results depend on the processing

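No test between groups was made, and the spread test called 0 genes under every alternative run, with 650 to 1074 genes at an unadjusted p below 0.05. Each alternative fitted the trend to the variances it tested, so these repeats are no independent support. The 12946 genes above background became 7670 of 16367 when only bright probe sets were used, which leaves 26 receptor genes for the threshold and tests fewer genes. They were 14806 and 9489 with the 90th and 99th percentile of the receptor genes, 13604 with the mean of probe sets, and 13097 to 13218 when 1 array was left out. Leaving out an array removes 1 condition of the rule, so that count could not fall. The median level of the 5 markers (11.70) was 11.96 with the mean and 12.59 with the 75th percentile of probe sets, and 11.64 to 11.77 with 1 array left out. With the mean, Pou5f1 (12.13), Nanog (12.47) and Esrrb (10.80) were lower than reported, and Sox2 (11.96) and Zfp42 (10.47) higher. The order of the 35 list medians was nearly the same in all settings (Spearman's correlation with the reported order 0.986 or more). No result is a difference between groups, so none has a direction that a setting could change. The number of widest genes shared with the reported 20 was 4 with the mean, 2 with the 75th percentile and 3 with bright probe sets. No paired analysis was possible because the description covers 1 group and no result comes from a test between groups. The thresholds at other percentiles for lists and the hairpin comparison of the widest 5% were chosen after seeing the data. Signal near the threshold limits the lineage counts.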

Other observations

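Most probe sets of the array carry no gene symbol. Of these 883569 probe sets, 152248 (17.2%) had a level above the probe set background of the sensory receptor genes on all 3 control arrays, against 55.2% of the 311384 probe sets with 1 symbol and 45.4% of the 6385 with several. Their median level was 5.59, against 7.74 for those with 1 symbol. Among chromosomes with at least 50 genes above background, the share of genes above background ranged from 52.6% on chromosome 6 and 53.9% on the X chromosome to 74.6% on chromosome 11. The genes counted include receptor genes, which set the threshold and of which 22 of 568 passed. Their number per chromosome was not matched.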
